A study of Mus musculus with 6 samples.

Results

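The 7 subunits of respiratory complex I that are encoded in mitochondrial DNA (mt-Nd1, mt-Nd2, mt-Nd3, mt-Nd4, mt-Nd4l, mt-Nd5 and mt-Nd6) were examined in injured mouse kidneys. They were taken by symbol from a table of read counts, where all 7 had a row among 25031 genes, and all 7 passed the filter on low counts. Of the 6 kidney libraries, 3 came from animals treated with (+)CePPy, called CePPy here, and 3 from animals treated with saline vehicle. CePPy is a cerium-doped polypyrrole nanoparticle with a positive charge, injected into a vein at 5 mg/kg directly after the injury. All 6 libraries came from kidneys of male wild-type C57BL/6 mice, between 7 and 8 weeks old, whose kidneys had both been deprived of blood for 23 min at a body temperature of 37 °C and then reperfused. Uninjured kidneys were not analysed here, and how long after the injury the kidneys were taken is not stated by the labels.

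Complex I (NADH dehydrogenase) takes electrons from NADH, passes them to ubiquinone and pumps protons across the inner mitochondrial membrane. Its membrane arm is built around the 7 mitochondrially encoded subunits, while the remaining subunits come from nuclear genes. The proximal tubule of the kidney depends on oxidative metabolism, and in ischemic tissue complex I is a known source of superoxide when oxygen returns. Mitochondrial genes are copied as long RNAs from both strands of the circular genome and cut apart mostly at the tRNAs that lie between them. All members except mt-Nd6 are encoded on one strand, read from the heavy-strand promoter, and mt-Nd6 is the only mRNA read from the other strand.

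The members lie at the following places on the mitochondrial chromosome of GRCm38 (GENCODE M21), and each is a single exon. On the plus strand, mt-Nd1 spans bases 2751 to 3707, mt-Nd2 3914 to 4951, mt-Nd3 9459 to 9806, mt-Nd4l 9877 to 10173, mt-Nd4 10167 to 11544 and mt-Nd5 11742 to 13565. On the minus strand, mt-Nd6 spans bases 13552 to 14070. Their lengths ran from 297 bases for mt-Nd4l to 1824 bases for mt-Nd5. The first 21 bases of each reading frame are shown because the members differ in the codon they start with, which is in capitals. Only mt-Nd4, mt-Nd4l and mt-Nd6 begin with ATG. 
mt-Nd1: GTGttctttattaatatccta
mt-Nd2: ATAaatcctatcacccttgcc
mt-Nd3: ATTaacctgtacactgttatc
mt-Nd4l: ATGccatctaccttcttcaac
mt-Nd4: ATGctaaaaattattcttccc
mt-Nd5: ATCaatattttcacaacctca
mt-Nd6: ATGaataattatatttttgtt

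Members overlap each other at 2 places, which matter for the counts. The end of mt-Nd4l and the start of mt-Nd4 share 7 bases on the same strand, and both proteins are made from a single mRNA. The ends of mt-Nd5 and mt-Nd6 share 14 bases on opposite strands. Both windows are given on the plus strand with the shared bases in capitals, at chrM:10156-10185 for the first and chrM:13544-13573 for the second.
mt-Nd4l and mt-Nd4: aacctactacaATGCTAAaaattattcttc
mt-Nd5 and mt-Nd6: atactcaaTTAATCTCGAGTAAtctcgata
The last bases of mt-Nd4 are shown because its annotated frame ends with 1 base past the last whole codon, in capitals, where a stop codon is completed by the added poly(A) tail. The other 6 members end in a complete TAA or TAG.
mt-Nd4 end: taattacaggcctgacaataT
The sense strand of mt-Nd6 held 28.1% G and 5.97% C, whereas the other 6 members held 8.00% to 11.6% G and 22.1% to 29.97% C.

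Near-identical copies of mitochondrial genes exist in the nuclear genome, so the members' counts depend on how reads with several matches were treated, which neither the labels nor the table states. A search of GENCODE M21 transcripts found a nuclear copy with at least 90% identity for 6 of the 7 members, and none for mt-Nd1. A stretch of chromosome 1 carries copies of 3 members: mt-Nd3 at 99.7% identity over 99.1% of its length, mt-Nd4l at 100% over 99.0% and mt-Nd4 at 100% over 63.6%. The copies of mt-Nd2, mt-Nd5 and mt-Nd6 lay between 92.4% and 96.7% identity. By gene identifier, 0 of these copies were among the genes counted, so no counts of the copies could be set beside those of the members.

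Total counts per library ran from 29762157 to 37415213. The members together took 5.48%, 5.47% and 5.79% of all counts in CePPy 1, 2 and 3, against 4.63%, 4.45% and 5.63% in vehicle 1, 2 and 3. Vehicle 3 lay within the range of the CePPy libraries and the other vehicle libraries lay below all of them. The share averaged 5.58 ± 0.182% in CePPy and 4.90 ± 0.634% in vehicle (SD, n = 3 each). The Wilson 95% interval of each share was at most 0.00839 percentage points to either side, which covers counting error only, so the spread between libraries was far larger than counting error. Whether the libraries of a group were separate animals is not stated, so p-values measure only the spread between these samples, which may be technical.

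Per kilobase of gene, the members differed in level by up to 8.15-fold over the mean of all libraries. mt-Nd1 had the highest length-scaled level of the 7 in each of the 6 libraries, at 13146 ± 523 CPM per kilobase in CePPy and 13110 ± 2354 in vehicle (SD, n = 3 each). CPM is a gene's count scaled to the TMM-adjusted total of its library. mt-Nd2 and mt-Nd4, which encode proton-pumping subunits of the membrane arm, came next. In length-scaled level they averaged 10009 ± 839 and 9852 ± 634 CPM per kilobase in CePPy, and 8458 ± 1353 and 8018 ± 1142 in vehicle. Their order changed places in CePPy 3 and vehicle 2, so they did not differ beyond their spread.

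The order of the remaining members was the same in each of the 6 libraries. mt-Nd6 averaged 8908 ± 371 CPM per kilobase in CePPy and 7452 ± 1238 in vehicle. mt-Nd5, the gene of the proton-pumping subunit at the far end of the membrane arm, averaged 7264 ± 358 in CePPy and 6013 ± 1008 in vehicle. mt-Nd4l averaged 4405 ± 212 CPM per kilobase in CePPy and 3387 ± 641 in vehicle. mt-Nd3 was lowest of all 13 mitochondrial mRNAs in each library, at 1697 ± 305 CPM per kilobase in CePPy and 1524 ± 287 in vehicle. These last members are the shortest of the 7 and are among those with a copy on chromosome 1. The part of either feature in their low level was not tested.

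**Figure D1:**
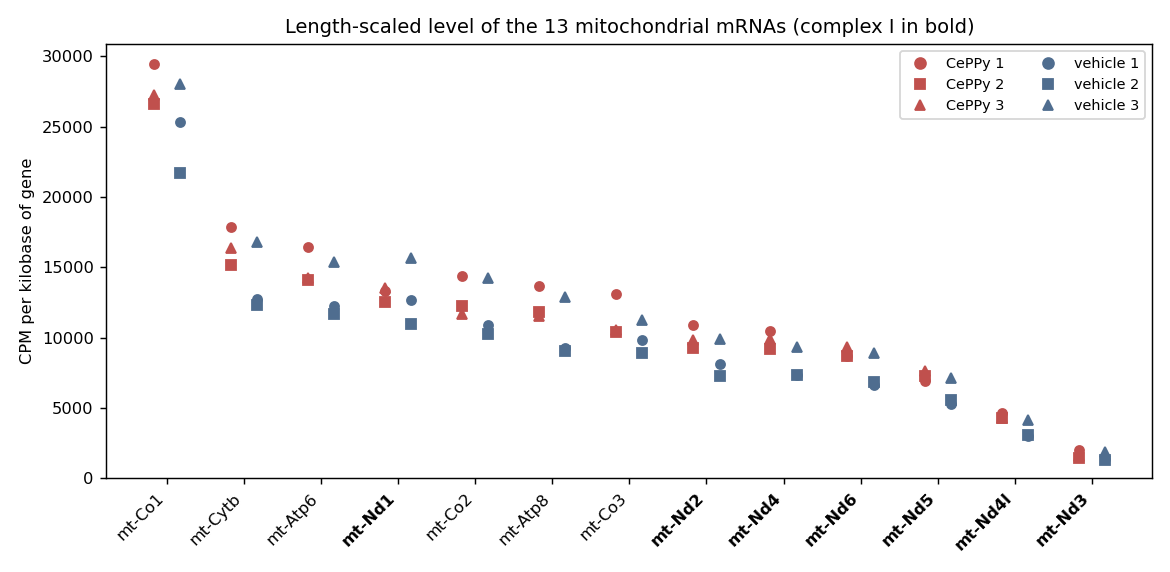
CPM per kilobase of gene (y axis) for the 13 mitochondrial mRNAs, ordered by their mean level, with 1 point per library, CePPy to the left of vehicle, and the complex I genes in bold. mt-Nd1 is the 4th of the 13 by mean level, the other 6 members hold the lowest 6 places, and mt-Nd3 is last.

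mt-Nd6 ranked just below mt-Nd2 and mt-Nd4 in length-scaled level although it is read from the other strand. In human cells its mRNA is known to lack a poly(A) tail. Libraries were made with an mRNA kit, and whether counting used strand is not stated. Without strand, mt-Nd6 reads and reads of RNA copied from the opposite strand of the same place cannot be told apart. mt-Nd6 counts equalled 35.8%, 34.002% and 34.9% of mt-Nd5 counts in CePPy 1, 2 and 3, and 35.7%, 34.9% and 35.2% in vehicle 1, 2 and 3. This ratio of neighbouring genes therefore varied little and its groups overlapped. On a per-kilobase scale, the log2 ratio of mt-Nd6 to the sum of the other 6 members was -2.38 ± 0.0811 in CePPy and -2.44 ± 0.0657 in vehicle (SD, n = 3 each). The difference of 0.06 gave p = 0.3 in a two-sided exact permutation test, whose smallest possible p with 3 against 3 libraries is 0.1. The difference was 0.0286 without vehicle 1, 0.0358 without CePPy 3 and 0.110 without CePPy 1.

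The comparison of CePPy with vehicle asks whether the nanoparticles changed these transcripts in the injured kidney. No member passed the edgeR test, and mean levels were higher in CePPy for 6 members by log2 fold changes between 0.16 (mt-Nd3) and 0.38 (mt-Nd4l), while mt-Nd1 was level at 0.00. The direction for mt-Nd1 turned below 0 on unscaled total counts, and those of mt-Nd1 and mt-Nd3 did so when libraries were scaled to the other mitochondrial mRNAs. Adjusted over all 15416 genes tested, edgeR called 0 of the 7 members, where it called 0.00649% of all genes, and the lowest adjusted p among them was 0.21. At an unadjusted p under 0.05, edgeR had 1 of 7 members, limma-voom 1, limma-voom with sample weights 2 and DESeq2 4, and each of these tools called 0 after adjustment. Over all genes with a p, the share under that threshold was 19% with edgeR, 18.8% with limma-voom, 23.8% with sample weights and 19.5% with DESeq2. DESeq2 called 7.07% of the genes to which it gave an adjusted p, 3.64% higher and 3.43% lower.

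mt-Nd4l, the gene of a small subunit next to the proton channels, showed the largest difference of the 7. It measured 1381, 1276 and 1268 CPM in CePPy 1, 2 and 3, against 886, 907 and 1225 CPM in vehicle 1, 2 and 3. Every CePPy library was above every vehicle library, with vehicle 3 only just below CePPy 3. The log2 fold change was 0.38 (SE 0.14, 95% interval 0.05 to 0.71, edgeR adjusted p = 0.21). It was the 1 member with an unadjusted edgeR p under 0.05 and the only one whose groups did not overlap in CPM. Over all genes tested, 26.3% had groups that did not overlap and 12.3% had all CePPy libraries higher, so 1 of 7 is near the background.

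mt-Nd4, which shares an mRNA with mt-Nd4l, measured 14406, 12665 and 13657 CPM in CePPy 1, 2 and 3, against 10160, 10121 and 12867 CPM in vehicle 1, 2 and 3. Vehicle 3 overlapped with CePPy 2, and the other vehicle libraries were lower than all CePPy libraries. The log2 fold change was 0.30 (SE 0.15, 95% interval -0.06 to 0.65, edgeR adjusted p = 0.337). mt-Nd4l counts equalled 9.58%, 10.1% and 9.29% of mt-Nd4 counts in CePPy 1, 2 and 3, and 8.72%, 8.96% and 9.52% in vehicle 1, 2 and 3, so this ratio overlapped between the groups.

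mt-Nd5 measured 12588, 13272 and 13892 CPM in CePPy 1, 2 and 3, against 9677, 10155 and 13073 CPM in vehicle 1, 2 and 3. Its neighbour mt-Nd6, the gene of a subunit that joins the membrane arm to the quinone site, measured 4512, 4513 and 4845 CPM in CePPy, against 3452, 3543 and 4607 CPM in vehicle. In both genes vehicle 3 lay inside the CePPy range and the other vehicle libraries lay below it. Their log2 fold changes were 0.27 (SE 0.16, edgeR adjusted p = 0.388) for mt-Nd5 and 0.26 (SE 0.14, edgeR adjusted p = 0.366) for mt-Nd6.

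mt-Nd2, another proton-pumping subunit, measured 11324, 9601 and 10243 CPM in CePPy 1, 2 and 3, against 8461, 7562 and 10317 CPM in vehicle 1, 2 and 3. Vehicle 3 was above CePPy 2 and CePPy 3. The log2 fold change was 0.24 (SE 0.16, 95% interval -0.13 to 0.61, edgeR adjusted p = 0.438). mt-Nd3 encodes a subunit with a loop near the quinone site, in which a cysteine becomes exposed in the deactive form that complex I takes on without oxygen. It measured 711, 514 and 546 CPM in CePPy and 488, 459 and 644 CPM in vehicle, with vehicle 3 above all but CePPy 1. Its log2 fold change was 0.16 (SE 0.17, 95% interval -0.24 to 0.55, edgeR adjusted p = 0.648), and without CePPy 1 it was 0.00.

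mt-Nd1, whose product forms much of the quinone-binding site, differed from the rest in that its highest and its lowest library were both vehicle. It measured 12739, 12021 and 12983 CPM in CePPy 1, 2 and 3, against 12162, 10511 and 14967 CPM in vehicle 1, 2 and 3. The log2 fold change was 0.00 (SE 0.17, edgeR adjusted p = 0.993), and its 95% interval of -0.38 to 0.39 does not exclude a change of the size seen for the other members.

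**Figure D2:**
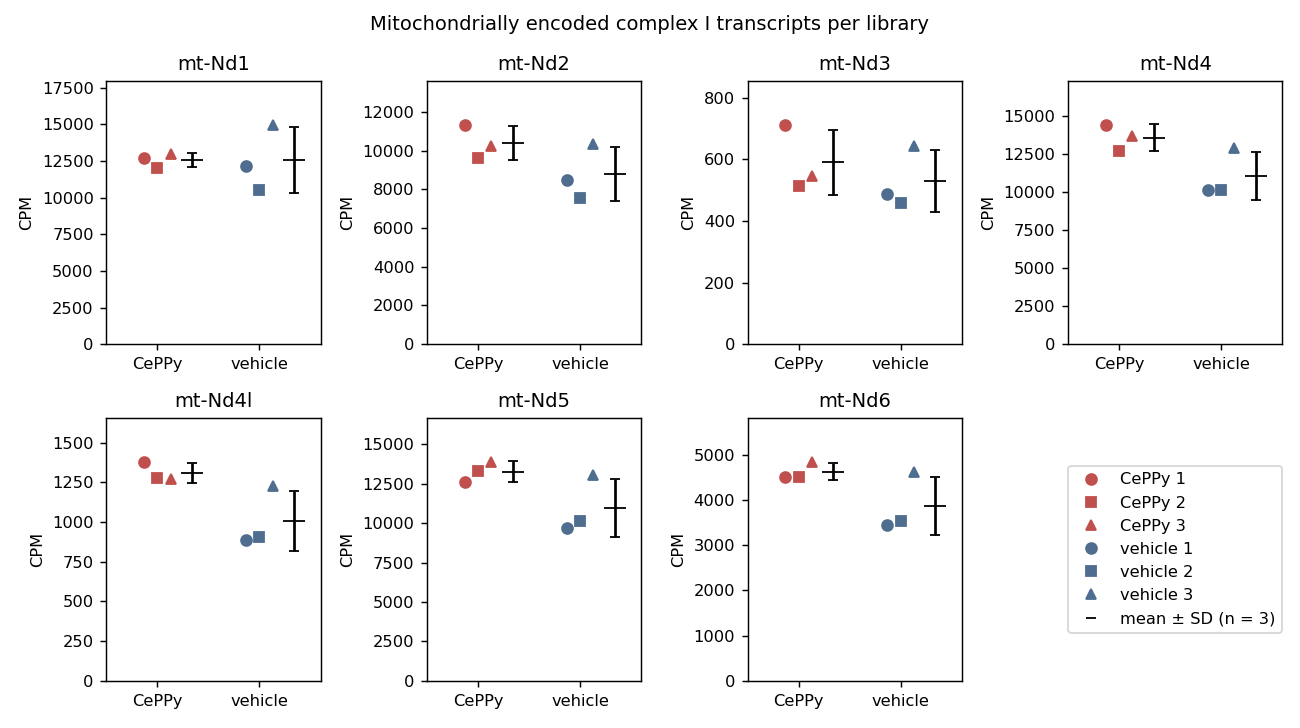
CPM of each complex I transcript (y axis, from 0) in the 3 CePPy and 3 vehicle libraries, with a marker for each library number and the mean ± SD beside each group. Vehicle 3 stands above the other vehicle libraries in all 7 panels, and mt-Nd4l is the only gene whose groups do not overlap.

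Vehicle 3 was the highest vehicle library for each of the 13 mitochondrial mRNAs. Leaving it out raised the median log2 fold change of the members to 0.40, against 0.26 with all libraries, and 4 of 7 then had an unadjusted edgeR p under 0.05, beside 13.2% of all genes in that fit. The members' log2 fold changes without it ran from 0.15 for mt-Nd1 to 0.55 for mt-Nd4l. None passed after adjustment without it, the lowest adjusted p being 0.287. Leaving out vehicle 1 gave a median of 0.19 and leaving out vehicle 2 a median of 0.20.

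The other 6 mitochondrial mRNAs, which encode cytochrome b of complex III, subunits of complex IV and subunits of ATP synthase, were measured in the same way. None of these passed the edgeR test, with 0 also at an unadjusted p under 0.05 and 0 by DESeq2 after adjustment. Their log2 fold changes ran from 0.11 for mt-Co2 to 0.25 for mt-Atp8, with a median of 0.19 beside 0.26 for the members and 0.00 over all genes tested. Their median was 0.30 without vehicle 3 and 0.11 without vehicle 2 or without CePPy 1, and mt-Co2 ran from 0.02 to 0.27 with a library left out. All 13 values were at or above 0, where 50.5% of all genes had a positive fold change. The 13 share a few primary transcripts and the same libraries, so they are not 13 separate observations. mt-Cytb, downstream of mt-Nd5 on the plus strand, measured 20442, 17343 and 18732 CPM in CePPy, against 14565, 14105 and 19203 CPM in vehicle, with vehicle 3 again inside the CePPy range.

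**Figure D3:**
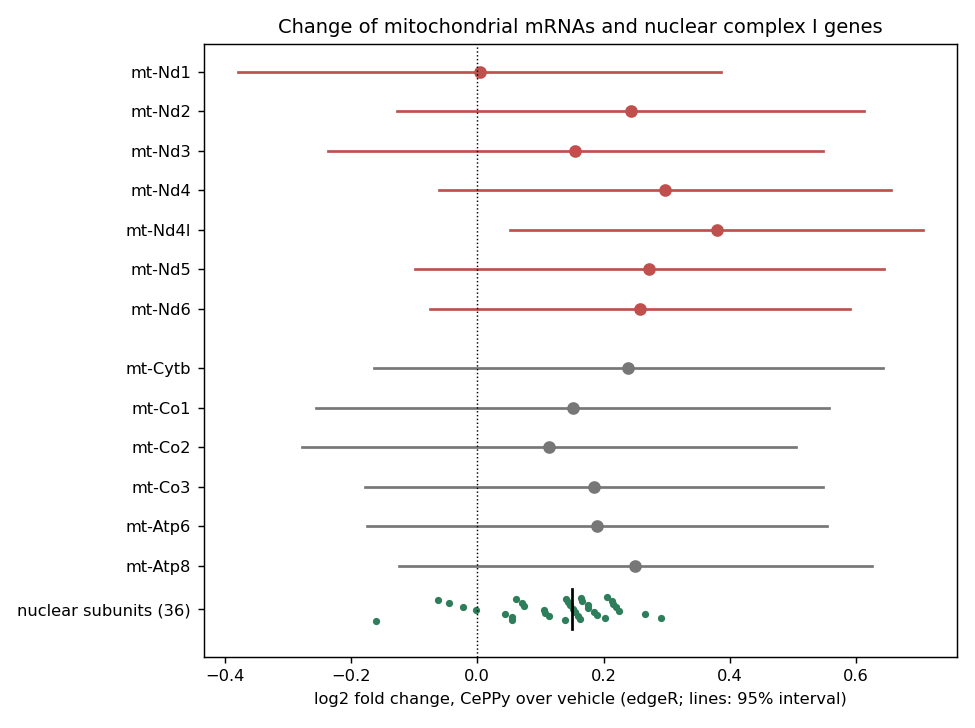
Log2 fold change of CePPy over vehicle (x axis) with its 95% interval from edgeR, for the 7 complex I transcripts (red) and the other 6 mitochondrial mRNAs (grey), with the 36 nuclear complex I genes as green dots and their median as a black line. Only the interval of mt-Nd4l lies wholly above 0, and the nuclear median is 0.15.

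Shares within the 13 mitochondrial mRNAs do not depend on how libraries are scaled against each other, though a rise of one share lowers the rest. mt-Nd1 made up 8.08%, 8.53% and 8.86% of mitochondrial mRNA counts in CePPy 1, 2 and 3, against 9.78%, 9.16% and 9.85% in vehicle 1, 2 and 3. Its share was lower in every CePPy library than in any vehicle library, with a mean difference of -1.11 percentage points (8.49 ± 0.392% in CePPy and 9.60 ± 0.378% in vehicle, SD, n = 3 each). Each of these shares had a Wilson 95% interval of at most 0.0286 percentage points to either side, which covers counting error only.

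mt-Nd2, mt-Nd4 and mt-Nd4l had the opposite pattern, with higher shares in every CePPy library. mt-Nd4 made up 9.13%, 8.99% and 9.32% in CePPy and 8.17%, 8.82% and 8.47% in vehicle. mt-Nd4l made up 0.875%, 0.905% and 0.865% in CePPy and 0.713%, 0.790% and 0.807% in vehicle. mt-Nd2 made up 7.18%, 6.81% and 6.99% in CePPy and 6.80%, 6.59% and 6.79% in vehicle, where the nearest libraries were almost level.

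The shares of mt-Nd3, mt-Nd5 and mt-Nd6 overlapped between the groups. Of all 13 mitochondrial mRNAs, 4 (30.8%) had shares that did not overlap between the groups, and these 4 were all members. Each of the 4 had p = 0.1 in a two-sided exact permutation test, the smallest this design allows, and 0.175 after Benjamini-Hochberg adjustment over the 7 members, so no share passed. The ratio of mt-Nd4l to mt-Nd1 counts, chosen after the values were seen, was 10.8%, 10.6% and 9.77% in CePPy 1, 2 and 3, against 7.29%, 8.63% and 8.19% in vehicle 1, 2 and 3.

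**Figure D4:**
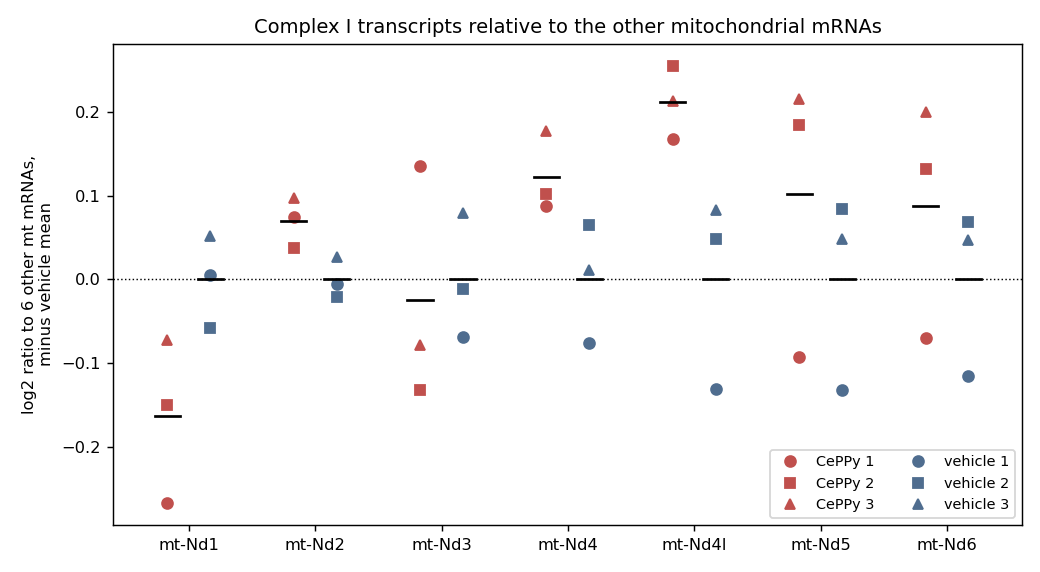
Log2 ratio of each complex I transcript to the summed counts of the 6 other mitochondrial mRNAs (y axis, minus the vehicle mean) in the 3 CePPy and 3 vehicle libraries, with group means as bars. The CePPy libraries lie below all vehicle libraries for mt-Nd1 and above them for mt-Nd2, mt-Nd4 and mt-Nd4l.

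Across the 6 libraries the members' log2 CPM moved together to different degrees, given here as a description over libraries that differ in treatment and depth. Pearson's r over the 21 pairs ran from 0.572 to 0.993 with a median of 0.816. The highest value belonged to mt-Nd5 and mt-Nd6, the neighbours on opposite strands, and the next, 0.982, to mt-Nd4 and mt-Nd4l, which share an mRNA. The lowest was between mt-Nd1 and mt-Nd4l. Among 3894 nuclear genes averaging 50 CPM or more, the 5 closest to the mean log2 CPM of the members were Galc (r = 0.981), Aff1 (0.971), R3hdm2 (0.971), Dhdds (0.962) and Rnf13 (0.953). With 6 libraries and this many genes such values say little. The closest of them, the lysosomal galactosylceramidase gene Galc, measured 106 ± 4.19 CPM in CePPy and 97.8 ± 7.4998 CPM in vehicle (SD, n = 3 each).

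The nuclear genes of complex I were given by a list of 37 subunits, of which 36 had a row in the table and passed the filter. edgeR called 0 of them, 0 had an unadjusted p under 0.05 and DESeq2 called 0. Fold changes were positive for 31 and negative for 5, where 50.5% of all genes had a positive one. The log2 fold changes ranged from -0.16 to 0.29. The median was 0.15, which turned to -0.05 when libraries were scaled to the 6 other mitochondrial mRNAs. Ndufs1, the iron-sulfur subunit that accepts electrons early in the peripheral arm, had the lowest p. It measured 278, 187 and 227 CPM in CePPy 1, 2 and 3, against 186, 175 and 204 CPM in vehicle 1, 2 and 3, so CePPy 1 stood out and the groups overlapped (log2 fold change 0.29, SE 0.14, edgeR adjusted p = 0.316). Next came Ndufb4, an accessory subunit of the membrane arm, at a log2 fold change of 0.27, then Ndufs8 at 0.21 and Ndufs3 at 0.20, both of the quinone-linked part of the peripheral arm.

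Mitochondrial and nuclear subunit genes differed in part in which libraries were high. CePPy 1 was the highest library in both lists by mean log2 CPM. By that measure the CePPy libraries ran from high to low as 1, 3 and 2 in both. Among single mitochondrial members, this order held only for mt-Nd2, mt-Nd3 and mt-Nd4. The mean log2 CPM of the nuclear list, set against the vehicle mean, was 0.38, -0.11 and 0.06 in CePPy 1, 2 and 3, and -0.04, 0.00 and 0.04 in vehicle 1, 2 and 3. For the mitochondrial members it was 0.31, 0.16 and 0.24 in CePPy and -0.11, -0.16 and 0.27 in vehicle. Thus vehicle 3 was high for the mitochondrial genes and near the vehicle mean for the nuclear genes, and CePPy 2 was above the vehicle mean for the mitochondrial genes and below it for the nuclear genes. Without CePPy 1, the median log2 fold change of the nuclear genes was 0.00, against 0.26 for the mitochondrial members.

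Assembly factors insert the mitochondrially encoded subunits into the growing complex. Of 18 listed, 17 were tested and edgeR and DESeq2 called 0, with a median log2 fold change of 0.00. Foxred1, an assembly factor of complex I, was the only one of these with an unadjusted p under 0.05. It measured 38.4, 30.1 and 35.2 CPM in CePPy, against 28.7, 29.99 and 28.6 CPM in vehicle, so that CePPy 2 was barely above vehicle 2 (log2 fold change 0.25, SE 0.11, edgeR adjusted p = 0.253). Tmem126b, an assembly factor of the membrane arm, had a log2 fold change of 0.28, Ndufaf1 of -0.18 and Acad9 of 0.14, and none of these passed.

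Genes that copy and maintain mitochondrial DNA showed no calls. All 18 listed were tested, 9 with positive and 9 with negative fold changes, a median of -0.02, and 0 below an unadjusted p of 0.05 with edgeR or called by DESeq2. Polrmt, the mitochondrial RNA polymerase, measured 31.7, 32.2 and 33.6 CPM in CePPy, against 33.6, 35.6 and 36.3 CPM in vehicle (log2 fold change -0.12, SE 0.08, edgeR adjusted p = 0.453). Tfam, which packages mitochondrial DNA and starts its transcription, measured 53.5, 43.0 and 54.8 CPM in CePPy, against 47.6, 44.8 and 51.5 CPM in vehicle (log2 fold change 0.07, SE 0.11, edgeR adjusted p = 0.752). The Tfam groups overlapped, and those of Polrmt were apart by a margin smaller than either group's range. Ssbp1, which binds single-stranded mitochondrial DNA, had a log2 fold change of -0.21, the elongation factor gene Tefm -0.18 and Mterf1b -0.50 (SE 0.35), and none passed.

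Of 19 genes that process and stabilise mitochondrial RNA, edgeR and DESeq2 called 0. Fold changes were negative for 14 of the 19, beside 49.5% of all genes, with a median log2 fold change of -0.08. At an unadjusted p under 0.05, edgeR had 3 lower and 1 higher. Beside these, 9.37% of all genes were lower and 9.65% higher at that threshold. Rexo2, a mitochondrial enzyme that degrades short RNAs, measured 75.7, 91.1 and 73.5 CPM in CePPy, against 98.0, 98.6 and 94.6 CPM in vehicle (log2 fold change -0.28, SE 0.10, edgeR adjusted p = 0.191), so the groups did not overlap. Fastkd2 and Tbrg4, of a family of mitochondrial RNA-binding proteins, had log2 fold changes of -0.25 (edgeR adjusted p = 0.236) and -0.18 (edgeR adjusted p = 0.239). Ptcd1, another mitochondrial RNA-binding protein, was the 1 higher gene at that threshold, at 0.28 (edgeR adjusted p = 0.204).

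Lrpprc and Slirp form the complex that protects mitochondrial mRNAs. Lrpprc measured 131, 120 and 129 CPM in CePPy, against 133, 133 and 142 CPM in vehicle (log2 fold change -0.10, SE 0.08, edgeR adjusted p = 0.487). Slirp measured 27.8, 24.3 and 22.4 CPM in CePPy, against 29.4, 27.5 and 27.5 CPM in vehicle (log2 fold change -0.18, SE 0.10, edgeR adjusted p = 0.379). The Lrpprc values were lower in every CePPy library, those of Slirp overlapped at CePPy 1, and neither gene passed.

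In bulk tissue a difference in the number of mitochondria-rich cells and a difference in RNA per cell cannot be told apart. Kidney identity was plain, as all 12 proximal tubule markers and all 10 markers of the thick limb and distal tubule were counted in every library. All 12 proximal tubule markers had positive fold changes, 4 of them called by DESeq2 and 0 by edgeR after adjustment, with 7 at an unadjusted edgeR p under 0.05. Over all genes, 50.5% had a positive fold change and 9.65% were higher at that unadjusted threshold. The summed level of the proximal tubule markers ranged from 12466 to 23745 CPM in CePPy and from 11889 to 13086 CPM in vehicle. The edgeR test called 0 markers of any list after adjustment. DESeq2 called 5 of 10 thick limb and distal tubule markers and 3 of 8 collecting duct markers, all higher, and 3 of 8 injury markers, all lower. Of all genes with an adjusted p, DESeq2 called 3.64% higher and 3.43% lower. Injury markers had a summed level of 17358 to 33480 CPM in CePPy and 30768 to 31628 CPM in vehicle, mostly from Spp1. Of the 8 injury markers, 7 had negative fold changes and 1, Vcam1, was positive at a log2 fold change of 0.38.

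By mean log2 CPM, the CePPy libraries ran from high to low as 1, 3 and 2 for the tubule lists and for the members. Among single members, this order held only for mt-Nd2, mt-Nd3 and mt-Nd4. CePPy 3 was the highest CePPy library for mt-Nd1, mt-Nd5 and mt-Nd6, and the lowest for mt-Nd4l. In mean log2 CPM, the tubule lists differed from the members in the place of vehicle 3. Against the vehicle mean, the mean log2 CPM of the proximal tubule list was 1.28, 0.19 and 0.73 in CePPy 1, 2 and 3, while the 3 vehicle libraries all lay at 0.00. The thick limb and distal tubule list was at 1.58, 0.29 and 0.91 in CePPy and between -0.02 and 0.03 in vehicle. Tubular injury markers were at -1.35, -0.18 and -0.44 in CePPy and between -0.02 and 0.03 in vehicle. In mean log2 CPM, vehicle 3 lay close to the other vehicle libraries for the tubule and injury lists. Its mean for the complex I members, 0.27, lay within the CePPy range. By summed CPM, the proximal tubule list was at 11889, 11916 and 13086 in vehicle 1, 2 and 3, and at 12466 in CePPy 2. By that measure vehicle 3 was the highest vehicle library and lay within the CePPy range. The thick limb and distal tubule list summed to 3118, 3362 and 3139 CPM in vehicle 1, 2 and 3, all below the CePPy libraries. The part of cell composition in the members' differences was not tested beyond these values.

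Other cell types were represented as follows. Of the 8 fat and blood cell markers, only 5 passed the filter on low counts. These 5 summed to between 278 and 404 CPM in CePPy and between 293 and 364 CPM in vehicle, mostly from hemoglobin genes. Ucp1, which marks mitochondria-rich brown fat, had 0, 0 and 12 counts in CePPy 1, 2 and 3, and 4, 0 and 0 in vehicle 1, 2 and 3. In the same order, the fat marker Plin1 had 0, 49 and 31 counts in CePPy and 14, 4 and 0 in vehicle. Adipoq had 0, 27 and 34 counts in CePPy and 9, 4 and 0 in vehicle. Cidea had 2, 15 and 22 counts in CePPy and 10, 0 and 2 in vehicle. Of the 10 immune cell markers, 8 were tested, and these 8 summed to between 95.2 and 113 CPM in CePPy and between 118 and 127 CPM in vehicle. Of the 8 tested, 4 had positive and 4 had negative fold changes, with edgeR log2 fold changes from -1.81 to 1.08. DESeq2 called 2 of the 8, both lower, beside 3.43% of all genes. Both are neutrophil genes, and both are part of the sums above. S100a8 had an edgeR log2 fold change of -1.81 (edgeR adjusted p = 0.0813) and S100a9 of -1.67 (edgeR adjusted p = 0.0884). DESeq2 called 0 endothelial, podocyte, fat or blood cell markers. The 8 endothelial and podocyte markers summed to between 557 and 602 CPM in CePPy and between 576 and 614 CPM in vehicle, and the 8 collecting duct markers to between 400 and 530 CPM in CePPy and between 293 and 332 CPM in vehicle.

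**Figure D5:**
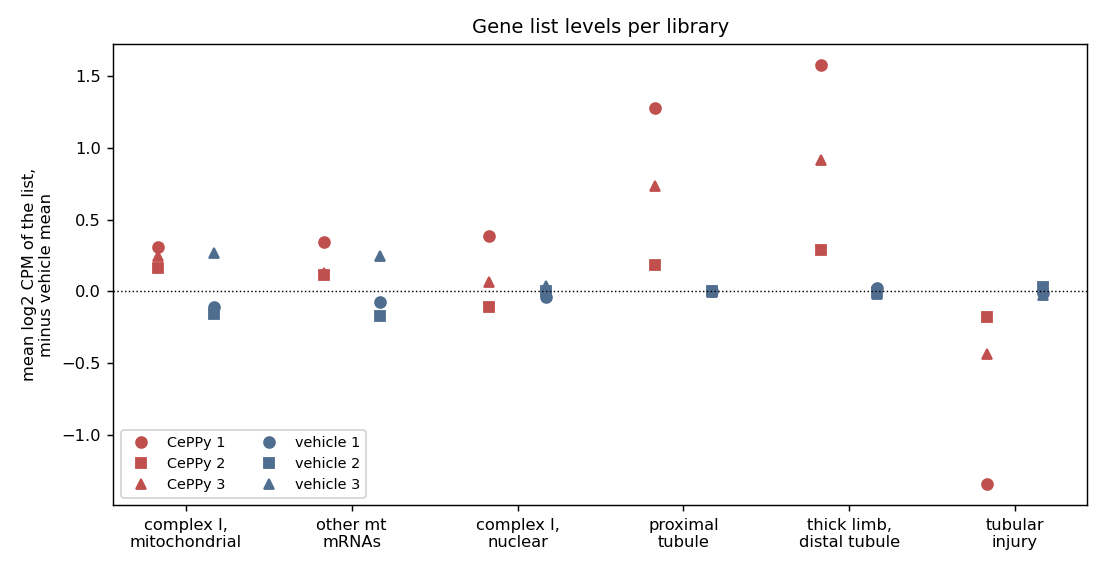
Mean log2 CPM of 6 gene lists (y axis, minus the vehicle mean) in each library, CePPy to the left of vehicle. Vehicle 3 is high for both mitochondrial lists but not for nuclear complex I or tubule markers, and CePPy 1 is the highest in the tubule lists and the lowest in tubular injury markers.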

How the data were processed

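RNA sequencing was done on 6 mouse kidney libraries, made per the labels' protocols from 2 µg of total RNA with an mRNA library kit. The authors deposited 1 table of raw counts, whole numbers with no normalization. The submitters' processing notes name TopHat2, Cufflinks, DESeq and the build GRCm38. Which program counted the reads, and how it handled strand and multiple matches, is not given in the sources. Groups and replicate numbers came from the sample titles, and no column was left over.

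Low-count genes were removed with filterByExpr in edgeR 4.0.16 (R 4.3.3), leaving 15416 of 25031 genes. Libraries were scaled by TMM, with factors from 0.950 to 1.03. Groups were compared with edgeR's quasi-likelihood test, treatment being the only term, and Benjamini-Hochberg adjustment covered the 15416 genes, with calls at 0.05. The edgeR step was tested on simulated data. Alternatives used DESeq2 1.42.0, limma 3.58.1, other scalings, no filter, a replicate block and leaving out each library. Log2 CPM used a prior count of 2. Positions and sequences came from GENCODE M21 (GRCm38), and nuclear copies were sought with BLAST 2.17.0. The mitochondrial rRNAs were listed but are not analysed here.

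Text named all members, the other mitochondrial mRNAs, up to 4 genes of each list by lowest p with Tfam, Polrmt, Lrpprc and Slirp always included, and the 5 genes most like the members. Marker lists are given by counts and by summed levels, and the sums cover only genes that passed the filter. The members, lists and tests were chosen with earlier results of these data known. Within groups, chi-square divided by its degrees of freedom was at least 19.7 for each pair of libraries, so none was counted as a copy.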

Additional observations from a re-analysis of the deposited data

How the results depend on the processing

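Across 15 alternatives, 0 of the 7 members and 0 of the nuclear complex I genes were called higher or lower, with other scalings, DESeq2, limma-voom with and without sample weights, no filter, the block or a library left out. Of 105 member fold changes under these alternatives, 98 kept their direction and 7 turned. The log2 fold change of mt-Nd1 was -0.0171 on unscaled total counts and -0.16 with libraries scaled to the 6 other mitochondrial mRNAs, and with a library left out it ran from -0.11 to 0.15. Scaled to the other mitochondrial mRNAs, the median of all genes moved by -0.19, and mt-Nd3 was at -0.0217, mt-Co1 at -0.0249 and mt-Co2 at -0.0598. These shifts follow from the scaling itself. Under that scaling the other 5 members ranged from 0.07 (mt-Nd2) to 0.21 (mt-Nd4l). mt-Nd4l ran from 0.21 to 0.55 over all alternatives, with adjusted p between 0.0779 and 0.478.

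The share of counts taken by the members was 0.676 percentage points higher in CePPy, and 0.450 to 1.04 with a library left out. The share of mt-Nd3 among mitochondrial mRNAs differed by -0.00930 percentage points, and by -0.0368 to 0.00641 with a library left out. The share of mt-Nd1 was lower by -1.33 to -0.906 points with a library left out. Shares with the rRNAs in the denominator were not run.

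The count over all genes, 0 higher and 1 lower with edgeR, changed with the filter, the libraries, the tool and scaling to the other mitochondrial mRNAs. It was the same with limma-voom without weights, RLE scaling, unscaled total counts and scaling from nuclear genes only. It was 72 higher and 124 lower when scaled to the other mitochondrial mRNAs, 26 and 37 with no filter, 528 and 498 with DESeq2 and 148 and 204 with limma-voom and sample weights. With a library left out, it ran from 0 to 478 higher and from 0 to 350 lower, the largest without CePPy 2. The cause was not tested. Whether replicate numbers pair the samples is not known. Same-numbered libraries' deviations from their group means correlated at -0.15, 0.0978 and -0.021. Over all pairs of a CePPy and a vehicle library, r ran from -0.15 to 0.18. With 3 libraries per group such values cannot show whether the samples were paired. With the replicate block, edgeR called 0 higher and 0 lower over all genes, mt-Nd4l had a log2 fold change of 0.39 (adjusted p = 0.268), and the mt-Nd6 ratio differed by 0.06 with an exact sign-flip p that 3 pairs cannot bring below 0.25.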
